A study of Mus musculus with 4 samples.

Results

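The probes described here are those for mouse microRNAs (miRNAs, short RNAs that pair with messenger RNAs and lower their output) numbered miR-297, miR-466, miR-467 and miR-669. They were chosen by name alone, taking any letter, copy number or arm, and 33 of the 566 mouse miRNA probes in the table carry such a name. The table held 618 probes in all, among them 6 negative controls with no target and 33 probes for miRNAs of mouse herpesviruses, which serve as background. The samples were total RNA from 2 normal livers and 2 liver tumours. The mice were female NF2fl/fl animals, whose floxed gene encodes the tumour suppressor merlin, and received either PBS or AAV2/8-Cre, a virus that brings Cre recombinase to hepatocytes and deletes the gene there. Tissue was inspected 50 weeks after administration. The labels state 3 mice without dividing them between the agents, and they give neither the age at administration nor the agent behind the normal samples. Nor do they tie replicates to different animals, and the p-values below therefore reflect only how far these 4 samples spread, a spread that may be technical.

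The gene Sfmbt2 belongs to the Polycomb group, whose proteins keep other genes silent. In mouse and rat a long intron of it holds many near-copies of a few miRNA hairpins, an expansion specific to rodents. Sfmbt2 is imprinted and expressed from the paternal copy in extraembryonic tissue, and the cluster is best known from placenta and embryonic stem cells, not from liver. RefSeq (assembly GRCm38.p6) lists 82 miRNA genes with these 4 numbers, of which 72 lie inside Sfmbt2 on chromosome 2 and 10 lie elsewhere. Of the 33 probes, 25 name miRNAs with genes inside Sfmbt2 only, 5 name miRNAs with genes elsewhere only (miR-466i, miR-466j, miR-466k, miR-467f and miR-467g), and 3 name both kinds. The name "Sfmbt2 cluster" therefore does not cover all of them, and they are called here by their numbers.

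RefSeq sequences (GRCm38.p6) matched the name of 5 of the miRNAs, and they are shown for their makeup. All 5 sequences lie outside Sfmbt2, so they do not show how alike the probes with genes inside it are. The seed, bases 2 to 8, through which a miRNA pairs with its targets, is in capitals, and each is written 5′ to 3′.
miR-466k: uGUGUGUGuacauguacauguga
miR-466j: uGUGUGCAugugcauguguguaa
miR-467h: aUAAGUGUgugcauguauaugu
miR-467f: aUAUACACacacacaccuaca
miR-467g: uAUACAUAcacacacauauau
MiR-466k lies at chr3:85467396-85467418 on the plus strand, miR-466j at chr10:60960802-60960824 on the plus strand and miR-467h at chr9:115381898-115381919 on the plus strand. MiR-467f lies at chr11:69635419-69635439 and miR-467g at chr5:34732872-34732892, both on the minus strand. All 5 seeds differ. The first 3 are rich in G and U, which make up 69.6% of miR-466k, 73.9% of miR-466j and 68.2% of miR-467h. The other two hold no G, and A and C make up 85.7% of miR-467f and 71.4% of miR-467g. The letters UGUG occur, with overlaps, 4 times in miR-466k, 5 times in miR-466j and 2 times in miR-467h, and ACAC occurs 5 times in miR-467f and 3 times in miR-467g. The probe for miR-467h also names miR-669d and miR-669l, so its counts cannot be divided among them.

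The assay was NanoString's nCounter, which counts colour-coded probes one by one. The deposited values were those counts multiplied by 1 factor per sample, 2.086 and 2.296 in normal liver (replicates 1 and 2, in that order throughout) against 0.395 and 0.9051 in tumour tissue, and whole counts could be recovered from them. Recovered counts over the mouse miRNAs totalled 68260 and 62054 in normal liver and 239727 and 123818 in tumour tissue. MiR-122, the defining miRNA of hepatocytes, took 17.2% and 20.4% of them in normal liver and 13.2% and 14.6% in tumour tissue. Detection meant a count above the negative controls' mean plus 2 SD in the same sample, which came to 18.3 and 11.2 counts in normal liver and 17.6 and 14.9 in tumour tissue.

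The 33 probes lay close to background in all 4 samples. Their counts ran from 3 to 27 with a median of 10 in normal liver replicate 1, and from 2 to 28 with a median of 12 in replicate 2. They ran from 2 to 61 with a median of 19 in liver tumour replicate 1, and from 1 to 31 with a median of 11 in replicate 2. The negative controls had medians of 9 and 7.5 in normal liver and 5.5 and 8.5 in tumour tissue, and the viral probes 11 and 9, then 15 and 6. Summed over 33 probes each, the counts were 379, 399, 684 and 417 for the miRNAs described here and 392, 354, 647 and 261 for the viral miRNAs, in the order normal replicates 1 and 2, tumour replicates 1 and 2. The ratio of these sums was thus 0.967 and 1.13 in normal liver and 1.06 and 1.6 in tumour tissue, highest in liver tumour replicate 2. No probe exceeded the highest viral probe of its sample, which was the same one in all 4 and stood apart at 159 counts in liver tumour replicate 1. Without that probe the viral sums were 362 and 317 in normal liver and 488 and 212 in tumour tissue. Set against these sums, with the 33 probes left whole, the ratio was higher in both tumours than in both normal livers. The second highest viral probe, at 26, 30, 44 and 20 counts, was exceeded by 1, 0, 3 and 5 of the 33.

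**Figure D1:**
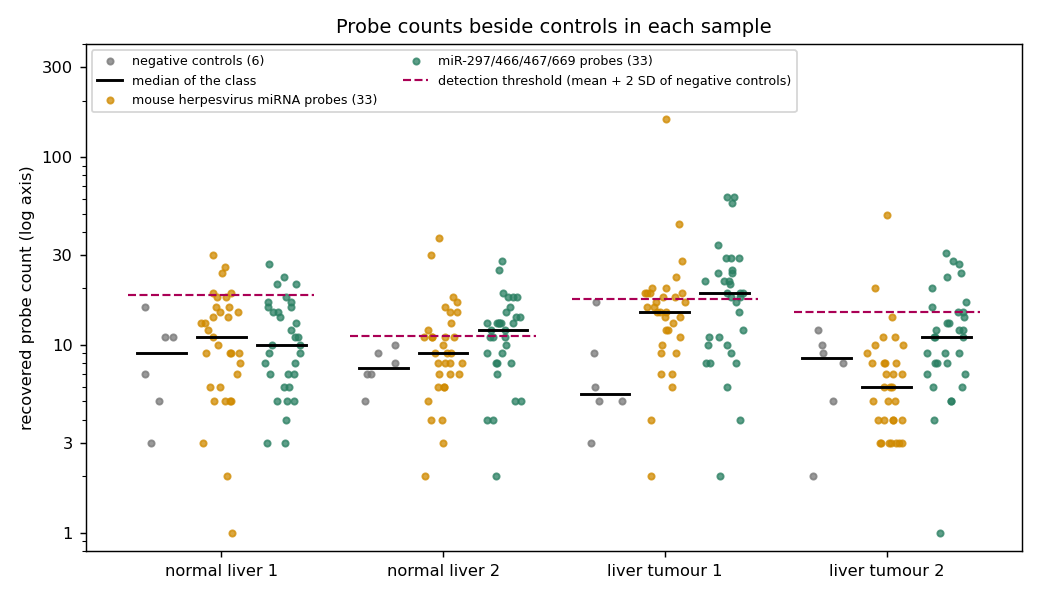
Recovered probe counts (log axis) in each of the 4 samples for the negative controls, the mouse herpesvirus probes and the 33 probes for miR-297, miR-466, miR-467 and miR-669, with class medians as black bars and the detection threshold dashed. The 33 probes overlap both background classes in every sample, with medians of 10 and 12 in normal liver and 19 and 11 in tumour tissue.

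Detection varied between samples of the same group, and so did its threshold, at 18.3 and 11.2 counts in normal liver. The SD of the 6 negative controls behind it was 4.75 and 1.75 in normal liver and 5.05 and 3.61 in tumour tissue. How far the numbers detected follow from the threshold was not tested. Of the 33 probes, 4 and 18 were detected in normal liver and 19 and 10 in tumour tissue, against 5, 9, 12 and 2 of the 33 viral probes in the same order. By share these were 12.1% and 54.5% in normal liver and 57.6% and 30.3% in tumour tissue, and the corresponding shares of all mouse miRNA probes were 28.8%, 48.1%, 54.9% and 36.9%. Only 1 probe was detected in all 4 samples, 9 were detected in none, 3 in both normal livers and 7 in both tumours. The 33 probes together took 0.555% of mouse miRNA counts in normal liver replicate 1 (95% Wilson interval 0.502 to 0.614%), 0.643% in replicate 2 (0.583 to 0.709%), 0.285% in liver tumour replicate 1 (0.265 to 0.307%) and 0.337% in replicate 2 (0.306 to 0.371%). These intervals cover counting error only, and the sums include background counts. The viral sums of 392, 354, 647 and 261 counts, set against the same totals, were also smaller in both tumours than in both normal livers. The part of background in these shares was not tested. In bulk tissue, fewer cells of a type and less RNA per cell cannot be told apart.

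All 4 numbers had low medians in every sample. Taking each probe by the first number in its name, the median counts in the 4 samples were 6, 10.5, 15 and 7.5 for the 4 miR-297 probes and 13.5, 11.5, 21.5 and 10 for the 12 miR-466 probes. They were 11, 13, 22 and 12 for the 8 miR-467 probes and 11, 12, 11 and 15 for the 9 miR-669 probes. Probes with genes inside Sfmbt2 only had medians of 10, 12, 19 and 12 counts, and those with genes elsewhere only had 12, 13, 21 and 8. No test separates these groups, which differ in probe as well as in gene. The miR-290 to miR-295 miRNAs, a cluster of embryonic stem cells and placenta, had 11 probes with medians of 7, 5, 10 and 5 counts, of which 0 were detected in normal liver and 1 and 0 in tumour tissue.

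**Figure D2:**
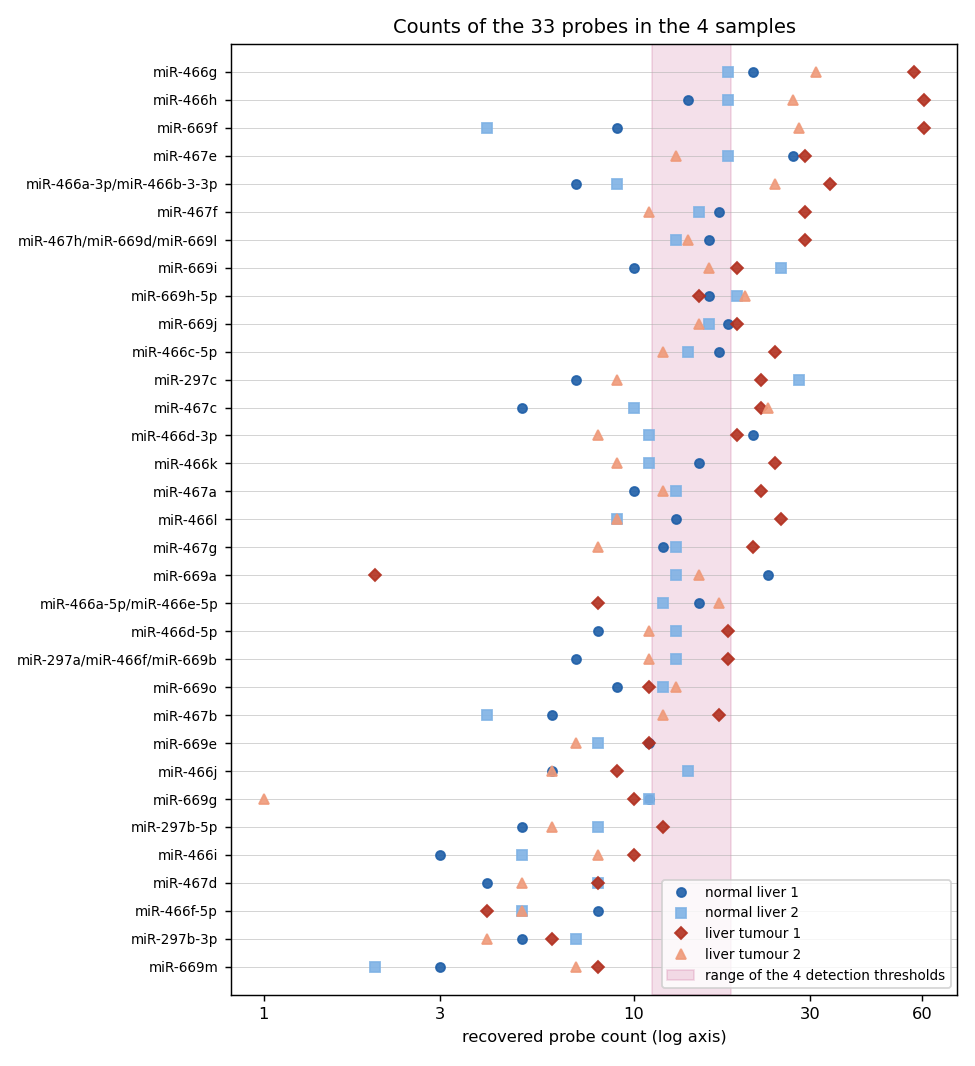
Recovered counts (log axis) of each of the 33 probes in the 4 samples, ordered by mean count, with the range of the 4 detection thresholds shaded. MiR-466g, miR-466h and miR-669f reach 57 to 61 counts in liver tumour replicate 1 and 27 to 31 in replicate 2. Most single counts of the other probes lie in or below the shaded range, and many of these probes rise above it in liver tumour replicate 1.

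The study set tumours induced by loss of NF2 against normal liver. The main test was limma on log2(deposited value + 1) over all mouse miRNAs with a mean log2 value above 3.925 (2 SD over the average scaled negative control), with Benjamini-Hochberg adjustment and a threshold of 0.05. The filter kept 276 of the 566 mouse miRNAs and 19 of the 33 described here. The 14 that were not kept had medians of 6.5, 8, 10 and 7 counts. The filter let most of the 19 through on normal liver alone. Its limit of 3.925 lay below the mean log2 value of the scaled negative controls in normal liver, 4.14, and above that in tumour tissue, 2.35. Of the 19 kept, 15 had a tumour mean below the limit, 1, miR-669f, a normal mean below it, and 3 both means above it. Of the 19, 13 were called lower in tumour tissue and 0 higher in the deposited scaling (0 higher also at an unadjusted p under 0.05), while over all mouse miRNAs kept 46.7% were called lower and 7.97% higher. All 13 had tumour means below the limit, so a lower tumour mean followed from the filter and the count is a description of the deposited values. With no filter, 21 of the 33 were called lower, against 48.8% of all 566. Without normal liver replicate 2 the number called lower was 6 of 19, against 17.0% of all kept. The median log2 difference of the 19 over all samples, tumour minus normal, was -1.62, against -0.90 over all 276. With the 5 members that one group did not detect at all set at their bound or at 0, it was also -1.62. In the deposited values both tumours lay below both normal livers for 27 of the 33, against 72.3% of all mouse miRNA probes, and above them for 1, against 8.3%.

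The background moved with this result, and its part in the calls was not tested. The same factors applied to the negative controls gave means of 18.4 and 17.6 in normal liver and 2.96 and 6.94 in tumour tissue. Their median log2 difference was -1.86 with all 6 below 0, and that of the viral probes was -1.75 with 32 of 33 below 0. Both tumours lay below both normal livers for 28 of the 33 viral probes. Of the 13 miRNAs called lower, 1 was detected in both normal livers, 10 in 1 of them and 2 in neither. With the positive controls, target RNAs that the assay adds at fixed amounts, set equal between samples in place of the deposited factors, limma called 0 of the 19 lower (1 at an unadjusted p under 0.05, while edgeR called 2) and 1 higher, against 2.17% and 12.7% of all kept, and the median was -0.64. The edgeR quasi-likelihood test on recovered counts called 2 lower and 1 higher, against 14.1% and 25.7% of all kept, with a median of -0.82. Under these 2 settings the medians over all 276 were 0.096 and -0.03. The negative controls and viral probes still lay lower in tumour tissue with the positive controls set equal, by medians of -1.0 and -0.82.

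**Figure D3:**
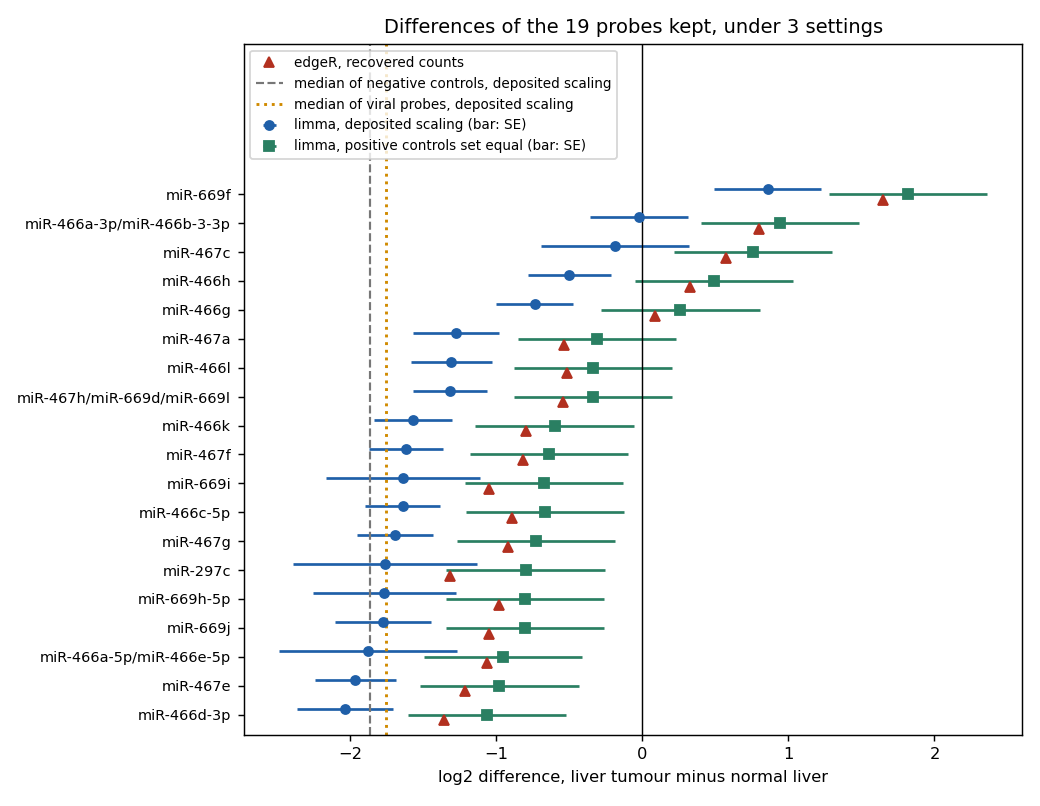
Log2 differences (liver tumour minus normal liver) of the 19 probes kept, by limma in the deposited scaling, by limma with the positive controls set equal (bars are SE) and by edgeR on recovered counts, with the medians of negative controls and viral probes in the deposited scaling as vertical lines. Most probes sit beside those lines at -1.86 and -1.75 in the deposited scaling, and miR-669f lies to the right of 0 under all 3 settings.

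MiR-669f, with its gene inside Sfmbt2, was the one miRNA of the 19 kept that was called higher under any of these 3 settings. Its counts were 9 and 4 in normal liver, below the detection thresholds, and 61 and 28 in tumour tissue, above them. The exact 95% Poisson intervals of 4.12 to 17.1 and 1.09 to 10.2 in normal liver did not reach those of 46.7 to 78.4 and 18.6 to 40.5 in tumour tissue, before any correction for depth. In deposited values it was 18.8 and 9.18 in normal liver and 24.1 and 25.3 in tumour tissue, and limma did not call it (log2 difference 0.86, SE 0.37, adjusted p = 0.0881). With the positive controls set equal limma called it higher (log2 difference 1.82, SE 0.54, adjusted p = 0.00991). That SE was the same for all 19 kept under this scaling, so it gives a spread pooled over probes and not that of miR-669f alone. The geometric mean of the tumours was then at least 1.61-fold that of the normal livers, each taken at its detection threshold, a bound on the means and not on each tumour. In the deposited scaling the same bound was under 1, so no fold is given there. EdgeR called it higher with a log2 difference of 1.65 (adjusted p = 0.019). In the deposited scaling the log2 difference of miR-669f was 1.34 without normal liver replicate 1 and 0.38 without replicate 2. It was 0.89 without liver tumour replicate 1 and 0.82 without replicate 2. Because it passed the filter through the tumours, where it is high, both tests were repeated with no filter. Limma then called it under equal positive controls (adjusted p = 0.026, with 4.95% of all 566 called higher) and not in the deposited scaling (adjusted p = 0.121). EdgeR with no filter called it too (log2 difference 1.98, adjusted p = 0.00676, with 15.0% called higher). Over all 18 other settings its adjusted p ran from 0.00676 to 0.359, with 10 of them past the threshold, and flooring every value at the scaled detection threshold turned the difference to -0.33.

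A further pair was detected in both tumours and in neither normal liver, and neither was called under any of these 3 settings. The probe shared by miR-466a-3p and miR-466b-3-3p, arms of hairpins repeated many times inside Sfmbt2, had 7 and 9 counts in normal liver and 34 and 24 in tumour tissue. Limma gave a log2 difference of -0.02 (SE 0.34, adjusted p = 0.953) in the deposited scaling and 0.94 (SE 0.54, adjusted p = 0.225) with the positive controls set equal, where the tumours' geometric mean was at least 1.11-fold that of the normal livers at their detection thresholds. MiR-467c had 5 and 10 counts in normal liver and 22 and 23 in tumour tissue. Its log2 difference was -0.19 (adjusted p = 0.782) in the deposited scaling and 0.76 (adjusted p = 0.325) with the positive controls set equal. For both, the counts of the 2 groups did not overlap, whereas the scaled values did in the deposited scaling.

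MiR-466g, the one miRNA of the 33 detected in all 4 samples, had 21 and 18 counts in normal liver and 57 and 31 in tumour tissue. Its deposited values were 43.8 and 41.3 against 22.5 and 28.1, so the tumours were higher by count and lower after scaling. Limma gave a log2 difference of -0.74 (SE 0.26, adjusted p = 0.0529), which turned to 0.26 under equal positive controls (adjusted p = 0.788) and 0.08 under edgeR (adjusted p = 0.878). MiR-466h, studied in hamster ovary cell cultures for a part in apoptosis, had 14 and 18 counts in normal liver and 61 and 27 in tumour tissue. Its log2 difference of -0.50 (adjusted p = 0.172) likewise turned to 0.49 under equal positive controls (adjusted p = 0.563) and 0.32 under edgeR (adjusted p = 0.513). By count alone both tumours lay above both normal livers for 8 of the 33 and below them for 1, against 39.0% and 3.71% of all mouse miRNA probes. The tumours also had the larger total counts.

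**Figure D4:**
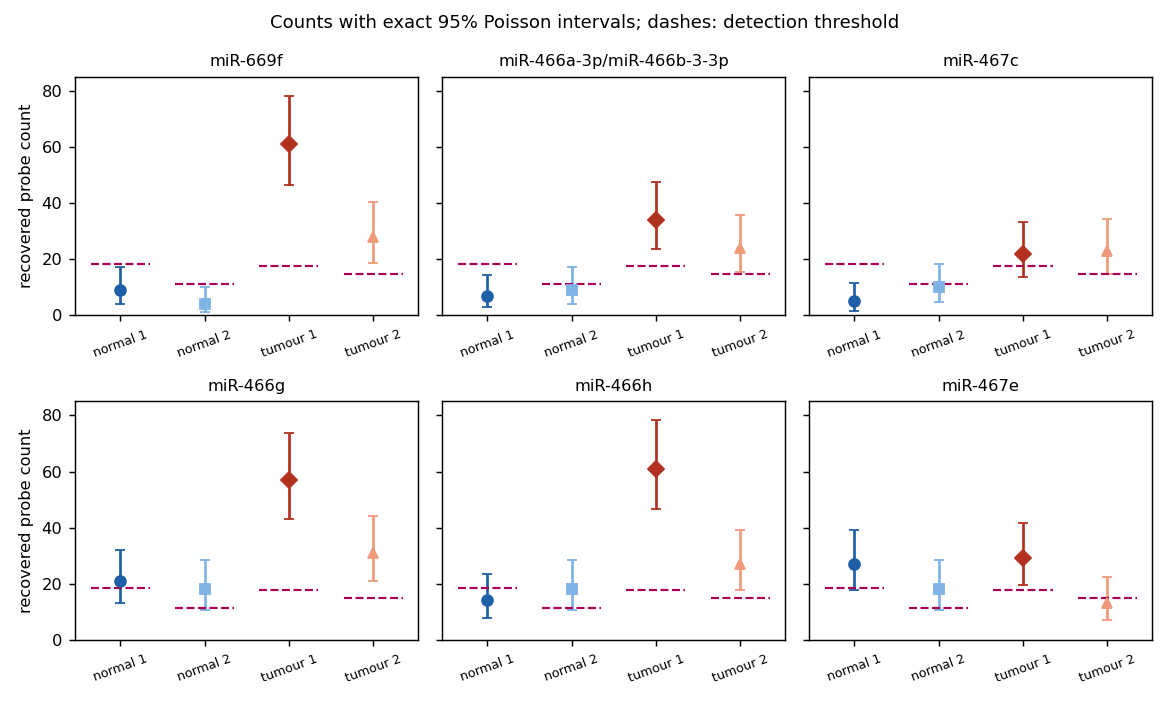
Recovered counts of 6 probes in the 4 samples with exact 95% Poisson intervals, which cover counting error only, and the detection threshold of each sample dashed. MiR-669f, the miR-466a-3p probe and miR-467c lie under the threshold in both normal livers and above it in both tumours, miR-466g lies above it in all 4 samples, and miR-467e does not reach it in liver tumour replicate 2.

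Among the miRNAs called lower, miR-467e and miR-466d-3p were the ones that edgeR called too. MiR-467e had 27 and 18 counts in normal liver, both detected, and 29 and 13 in tumour tissue, of which the first was detected. In deposited values these were 56.3 and 41.3 against 11.5 and 11.8, with no overlap. It fell by limma in the deposited scaling (log2 difference -1.97, SE 0.28, adjusted p = 0.00338) and in edgeR (-1.22, adjusted p = 0.0306), and equal positive controls left it uncalled (-0.98, adjusted p = 0.208). MiR-466d-3p had 21 and 11 counts in normal liver and 19 and 8 in tumour tissue, with 1 sample detected in each group. Its log2 difference was -2.03 (SE 0.33, limma adjusted p = 0.0036) in the deposited scaling and -1.36 in edgeR (adjusted p = 0.0241), and -1.07 under equal positive controls (adjusted p = 0.156). With each of the 4 samples left out in turn, deposited log2 differences ran from -2.18 to -1.75 for miR-467e and from -2.42 to -1.65 for miR-466d-3p. Both had tumour means below the filter's limit, so a lower tumour mean followed from the filter here too. With no filter edgeR called neither (adjusted p = 0.134 for miR-467e and 0.116 for miR-466d-3p). It then called 1 of the 33 lower, against 5.83% of all 566. This was miR-669g, with 11 and 11 counts in normal liver and 10 and 1 in tumour tissue, all below the detection thresholds. Limma with the positive controls set equal and no filter called 2 lower, against 2.83% of all, miR-669g and miR-669a, and each has 1 tumour at 1 or 2 counts. These names were picked after their values were seen.

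The other 11 called lower had log2 differences inside the range of -2.03 to -1.28 that all 13 span, with adjusted p-values of 0.00338 to 0.0396 over the 13, and edgeR called none of them. MiR-467f had 17 and 15 counts in normal liver and 29 and 11 in tumour tissue (log2 difference -1.62, limma adjusted p = 0.00339), and miR-467g had 12 and 13, then 21 and 8 (-1.69, adjusted p = 0.00339). These are the G-free sequences printed above, both with genes outside Sfmbt2. The G- and U-rich miR-467h, whose probe names miR-669d and miR-669l too, had 16 and 13, then 29 and 14 (-1.32, adjusted p = 0.00723). For all 3 the counts overlapped between the groups and the deposited values did not. MiR-669j had 18 and 16 counts in normal liver and 19 and 15 in tumour tissue, nearly the same count in every sample, and its log2 difference was -1.78 (adjusted p = 0.00641). MiR-669h-5p had 16 and 19, then 15 and 20 (-1.77, adjusted p = 0.0228). MiR-669i had 10 and 25, then 19 and 16 (-1.64, adjusted p = 0.0391). The probe shared by miR-466a-5p and miR-466e-5p had 15 and 12, then 8 and 17 (-1.88, adjusted p = 0.0396). MiR-669j, miR-669h-5p, miR-669i and the miR-466a-5p probe, like miR-467f, miR-467g and the miR-467h probe, lost their calls in edgeR, where adjusted p-values were 0.0667, 0.169, 0.146 and 0.2 for the first 4. Without either normal liver the limma calls of miR-669j, miR-669h-5p, the miR-466a-5p probe and the miR-467h probe were lost, that of miR-669i was lost when normal liver replicate 2 or the first tumour was left out, and that of the miR-466a-5p probe also without liver tumour replicate 1.

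By gene position, 9 of 15 kept probes with genes inside Sfmbt2 only were called lower, 3 of 3 with genes elsewhere only and 1 of 1 naming both, against 46.7% of all kept. EdgeR called 2, 0 and 0 of them lower, against 14.1% of all kept. Limma with the positive controls set equal called 0 in each, against 2.17%. By number, 5 of 8 kept miR-466 probes were called lower, 5 of 6 miR-467, 3 of 4 miR-669 and 0 of 1 miR-297, against the same 46.7%. EdgeR called 1, 1, 0 and 0 of them lower, against the same 14.1%. The 19 probes not named by the rule above ranged from 3 to 23 counts in normal liver replicate 1, 2 to 28 in replicate 2, 2 to 25 in liver tumour replicate 1 and 1 to 15 in replicate 2.

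Some markers of several cell types were also called, by limma in the deposited scaling or by edgeR. As a yardstick, limma put 46.7% of the 276 kept miRNAs in the lower class and 7.97% in the higher one. The matching shares for edgeR were 14.1% and 25.7%. All 5 hepatocyte miRNAs were called lower by limma and 1 by edgeR, with summed values of 31883 and 36087 in normal liver and 15189 and 19504 in tumour tissue. Of 4 bile duct miRNAs 3 were called higher by both (171 and 191, then 1288 and 1253), and of 5 stellate and mesenchymal ones limma called 2 higher and edgeR 4 (1141 and 958, then 2428 and 1455). Of 4 leukocyte miRNAs limma called 1 lower and edgeR 2 higher (1018 and 1323, then 848 and 746), of 2 endothelial ones limma called 1 lower and edgeR 1 higher (5229 and 4599, then 3879 and 4116), and of 3 erythroid ones 0 were called by limma (edgeR called 3 higher). Their part in the values of the 33 probes was not tested.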

How the data were processed

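MiRNAs were measured with the nCounter miRNA Expression Assay, per the labels' protocols. The deposited values are signal values. Neither software nor the choice of factor is stated in the labels. The authors left control probes unscaled. The scaling to positive controls used the geometric mean of the 5 most concentrated. From the deposited signal, 1 factor per sample gave whole counts for 100% of miRNA, viral and messenger RNA values (within 0.1 count). Negative controls were multiplied by the same factor before comparison with deposited values. The mean plus 2 SD for the filter was taken over the 6 controls' means over samples. Over all 24 single control values, a reading added after seeing the data, it was 5.57 and kept 116 miRNAs, with 0 of the 33 among them.

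Tests were limma 3.58.1 (lmFit, eBayes, two-sided, pseudocount 1) and edgeR 4.0.16 (TMM) in R 4.3.3, run over all miRNAs kept and tested on simulated data. With the positive controls set equal, limma gave all 19 kept the same SE of 0.54. Its p-values there rest on a spread pooled over probes, not on each probe's own. Fold changes on log2(value + 1) understate those of low miRNAs. Counting precision is given by exact Poisson or Wilson 95% intervals. Named miRNAs were those detected in all 4 samples, the 8 with the highest mean count, the 6 called with the largest difference, and those detected in both samples of 1 group and neither of the other. Members and lists were chosen with earlier results of these data known. The RefSeq gene Mir466 was taken for miR-466a. Same-numbered samples had a residual correlation of 0.0421 and were not treated as pairs.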

Additional observations from a re-analysis of the deposited data

How the results depend on the processing

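The number of the 19 kept miRNAs called lower, 13 in the deposited scaling, was 0 with the positive controls set equal, with quantile normalization and with the negative controls subtracted, 2 in edgeR, 5 under equal medians, 9 under equal totals, 15 and 13 with pseudocounts of 10 and 30, 17 with values floored, 21 of 33 with no filter and 3 of 9 with a filter on detection. The shares of all miRNAs called lower were, in that order, 2.17%, 3.99%, 0%, 14.1%, 18.1%, 26.8%, 51.8%, 48.6%, 59.8%, 48.8% and 33.6%. With no filter it was 2 of 33 under equal positive controls and 1 in edgeR (medians -0.60 and -0.53, 1 called higher in each), both added after seeing the data. It was 6 to 13 with each sample left out in turn (17.0% to 46.0% of all), lowest without normal liver replicate 2. The number called higher, not counting fits with a sample left out, was 0 as deposited. With the same filter it was 1 under 4 scalings (positive controls, medians, totals, quantiles), background subtraction, edgeR and the replicate block. The shares of all miRNAs called higher were, in that order, 12.7%, 21.4%, 12.3%, 6.52%, 2.9%, 25.7% and 6.88%, against 7.97% as deposited. With the replicate block, which changed no direction, 14 were called lower, against 51.8% of all. The median difference of -1.62 was -0.64 under equal positive controls, -0.85 under equal medians, -1.18 under equal totals, -0.25 under quantile normalization, -0.74 with the filter on detection, -1.07 and -0.60 with pseudocounts of 10 and 30, -0.86 with background subtracted and -0.82 in edgeR, and -1.57 to -1.25 with a sample left out. Directions turned upward with positive controls, equal medians, quantile normalization and edgeR for miR-466g (0.26, 0.054, 0.18 and 0.083) and miR-466h (0.49, 0.29, 0.53 and 0.32, and 0.25 with background subtracted), and in edgeR with no filter to 0.42 and 0.67. With positive controls, equal medians, equal totals, quantile normalization, background subtraction and edgeR they turned upward for the miR-466a-3p/miR-466b-3-3p probe (0.94, 0.75, 0.42, 1.28, 2.74 and 0.80) and miR-467c (0.76, 0.57, 0.25, 1.13, 1.99 and 0.57), and in edgeR with no filter to 1.13 and 0.89. Without normal liver replicate 2 or liver tumour replicate 1 these were 0.22 and 0.31 for the former and 0.35 and 0.40 for the latter, and without liver tumour replicate 2 they were -0.35 and -0.77. The miR-467h/miR-669d/miR-669l probe turned to 0.026 with quantile normalization, and miR-669f to -0.33 with values floored at the detection threshold, a setting added after seeing the data. Members detected in both normal livers numbered 3, or 1 above 3 SD, 0 above the viral threshold and 7 above the highest negative control, and in both tumours 7, or 4 above 3 SD, 0 above the viral threshold and 9 above the highest negative control. The cause of these shifts was not tested. Counts of 1 to 61 limit all of these values.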

Other observations

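The following values were picked after they were seen, and some of them also enter comparisons above. MiR-669a, whose hairpin is repeated 12 times inside Sfmbt2 and which in mouse heart progenitor cells is known to restrain muscle differentiation, had 23 and 13 counts in normal liver, both detected, and 2 and 15 in tumour tissue, of which the second was detected. It was not kept by the filter. MiR-297c had 7 and 28 counts in normal liver and 22 and 9 in tumour tissue, so the 2 samples of each group lay on opposite sides of their detection thresholds. The viral probe with the highest count was the same in all 4 samples, mghv-miR-M1-7-5p, with 30 and 37 counts in normal liver and 159 and 49 in tumour tissue.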
